A study of Mus musculus with 12 samples.

Results

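The genes described here are 32 mouse genes of major histocompatibility complex (MHC) class I antigen presentation, chosen by symbol from a list of class I heavy chains, the light chain, peptide transport and loading, the immunoproteasome, aminopeptidases, class I transcription factors and interferon gamma signalling. Of these, 25 had an entry under their symbol among the 42329 of the deposited table, and 24 passed the filter on low values (at least 1 FPKM in at least 3 libraries), so 24 were tested. FPKM are fragments per kilobase of gene model per 1000000 fragments of the library. H2-Q6 was listed at 0 in all 12 libraries. H2-D1, H2-T22, H2-T23, H2-Q4, H2-Q7, Cd1d1 and Raet1e were not analysed here, because no row carried their symbols. Of the 42329 entries, 11920 carried no symbol, 1922 of them among the genes past the filter. These may hold some of the genes without a row, so a missing symbol does not mean that the gene was not measured. The 12 libraries are of MC38, a mouse colon adenocarcinoma line, carrying either the control guide (sgControl) or the guide that targets the lactate receptor gene Hcar1 (sgHcar1), each kept for 24 h in PBS vehicle or in 20 mM lactate, with 3 libraries for each of the 4 combinations. The labels do not say whether a guide population is 1 clone or whether the 3 libraries of a group are separate cultures, so a difference between guides and a difference between these 2 cell populations cannot be told apart, and p-values measure the spread between libraries alone.

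MHC class I molecules carry peptides from proteins made inside the cell to its surface, where cytotoxic T cells read them. Proteasomes cut the proteins, and the interferon-inducible immunoproteasome subunits replace constitutive ones. The TAP transporter moves the peptides into the endoplasmic reticulum (ER), aminopeptidases trim them, and tapasin and its relative select those that bind the heavy chain and beta-2 microglobulin. Interferon gamma raises much of this machinery through its receptor and the kinases JAK1 and JAK2, through the factor IRF1, and through NLRC5, which works with other proteins at conserved elements of class I promoters. Loss of this machinery is a known route by which tumour cells escape T cells, and MC38 tumours are widely used to study it.

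The targeted gene could not be checked: Hcar1 was listed at 0 in 11 of 12 libraries and at 0.0196 FPKM in the remaining 1, an sgHcar1 library in PBS. Of 14 leukocyte markers, 12 had an entry and 5 of these were at 0 in all libraries, and the FPKM of the 12 summed to 16.2 to 21 in sgControl and to 8.1 to 10.4 in sgHcar1 libraries, nearly all from Cd14 and Cd68. Epcam and Cdx2, markers of colon epithelium, were listed at 0 in every library, while the 9 epithelial markers with an entry summed to 4.07 to 6.72 FPKM in sgControl libraries, to 46.2 to 49.2 in sgHcar1 PBS and to 111 to 115 in sgHcar1 lactate libraries. This rise was in Krt18, with mean values of 46.2 and 113 FPKM in sgHcar1 cells, while Cdh1 and Krt19, at 1.72 and 1.31 FPKM in sgControl PBS, were listed at 0 in sgHcar1 libraries; of 4 epithelial markers tested, 1 was higher and 2 were lower between guides in PBS. The 9 fibroblast markers summed to 238 to 284 FPKM in sgControl libraries, to 185 to 195 in sgHcar1 PBS and to 81.5 to 86.4 in sgHcar1 lactate libraries. Its members went opposite ways, with 2 of 7 tested higher and 5 lower in sgHcar1 cells in PBS: Col1a1 and Col1a2 went from means of 1.01 and 45.5 to 23.1 and 115 FPKM, and Col3a1 and Fbln2 from 67.2 and 136 to 1.55 and 44.7 FPKM. Of all tested genes 38.2% were higher and 38.4% lower in this comparison, so the epithelial and fibroblast counts are not read as particular to these markers. The part of these marker differences in the results on guides and on lactate in sgHcar1 cells was not tested. The scale of the libraries bears on small changes. The FPKM steps gave whole fragments for 13736 of 13736 tested genes, and the fragments assigned to genes were 93.2% to 96.5% of the total implied by the FPKM in 9 libraries, but 111% to 113% in the 3 sgHcar1 lactate libraries. The median change of all genes, which is 0.00 to 0.01 on the log2 scale as deposited, moves by -0.13 for lactate in sgHcar1 cells when libraries are scaled to those fragments, and by -0.12 when each is rescaled to a sum of 1000000 FPKM. The difference between guides in lactate moves by -0.17 and -0.37 under the same scalings, and the difference between the lactate effects by -0.14 and -0.21, while the difference between guides in PBS moves by -0.02 and -0.16. Effects below are limma estimates ± SE on the scale of log2(FPKM + 1), with n = 3 libraries in each group and Benjamini-Hochberg adjustment over all tested genes. This scale understates the change of genes near 1 FPKM. Folds of single genes are ratios of group mean FPKM, whereas counts of changes of at least 2-fold require a change of at least 1 on the log2(FPKM + 1) scale.

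In sgControl cells lactate raised most of the pathway: 15 of 24 members were higher, 1 was lower and 8 did not pass, with a median change of 0.25 against 0.00 for all genes. The background is high, since 65.7% of all tested genes passed, 33.9% higher and 31.9% lower. The share of members with a call, 66.7%, was thus near that of all genes, and the excess was in the direction, 62.5% higher. On the log2(FPKM + 1) scale, at least 2-fold rises were called for 3 members (Nlrc5, Tap2 and H2-M3), against 4.26% of all genes, and at least 2-fold falls for 0, against 2.95%.

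In sgHcar1 cells lactate gave a more mixed result: 14 members were higher, 5 lower and 5 did not pass, with a median of 0.25 against 0 for all genes, where 72.2% of genes passed, 36.8% higher and 35.4% lower. This split depends on scale. It was 9 higher and 7 lower with a sum of 1000000 FPKM per library, and 9 higher and 9 lower with libraries scaled to the fragments assigned to genes. As deposited, at least 2-fold changes on the log2(FPKM + 1) scale were 1 rise (Nlrc5) and 2 falls (Irf1 and Socs1), against 8.83% and 6.16% of all genes.

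The 2 lactate effects were compared directly. The effect in sgHcar1 cells minus that in sgControl cells was higher for 4 members, lower for 12 and not past the threshold for 8, with a median of -0.16 against 0.01 for all genes, of which 59.1% passed, 30.4% higher and 28.7% lower. With a sum of 1000000 FPKM the split was 1 and 15, and it was 2 and 13 both with quantile normalization and with the scaling to fragments. As deposited, the difference on the log2(FPKM + 1) scale was at least 2-fold for 0 members upward and for 1 downward (Irf1), against 4.19% and 3.59% of genes. By pattern, 12 members rose in both populations, and for 10 of these the difference between the rises passed as deposited. Among these 10, the differences of B2m, Psme3, Lnpep, Nlrc5 and Jak2 did not pass under at least 1 alternative. The share of all genes with this pattern is not given here, so the pattern counts are not read as particular to the members. Ifngr1 rose in sgControl and fell in sgHcar1 cells, and Socs1 fell in both.

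The sgHcar1 cells also differed from sgControl cells before lactate. In PBS 8 members were higher, 13 lower and 3 did not pass, with a median of -0.22 against 0.01, on a background of 76.7% of genes called, 38.2% higher and 38.4% lower. Rescaled to a sum of 1000000 FPKM the split was 6 higher and 15 lower. As deposited, at least 2-fold differences on the log2(FPKM + 1) scale were 3 upward (H2-M3, Tap2 and H2-T24) and 5 downward (H2-K1, Psmb8, Nlrc5, Tapbpl and Ifngr2), against 8.68% and 11.5% of genes. In lactate 10 members were higher, 12 lower and 2 did not pass, with a median of -0.06 against 0.01 and 82.2% of genes called, 41.3% higher and 40.9% lower. The split in lactate became 4 and 15 with a sum of 1000000 FPKM, 7 and 13 with quantile normalization and 5 and 15 with the scaling to fragments. At least 2-fold differences in lactate on the log2(FPKM + 1) scale, as deposited, were 1 upward (H2-M3) and 7 downward (H2-K1, Nlrc5, Irf1, Tapbpl, Psmb8, Ifngr1 and Ifngr2), against 12.8% and 14.5% of genes. H2-T24, 2.17-fold higher in lactate by mean FPKM, is not among them, with 0.85 on the log2 scale. The comparisons share groups of libraries, so their counts are not independent of each other.

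**Figure D1:**
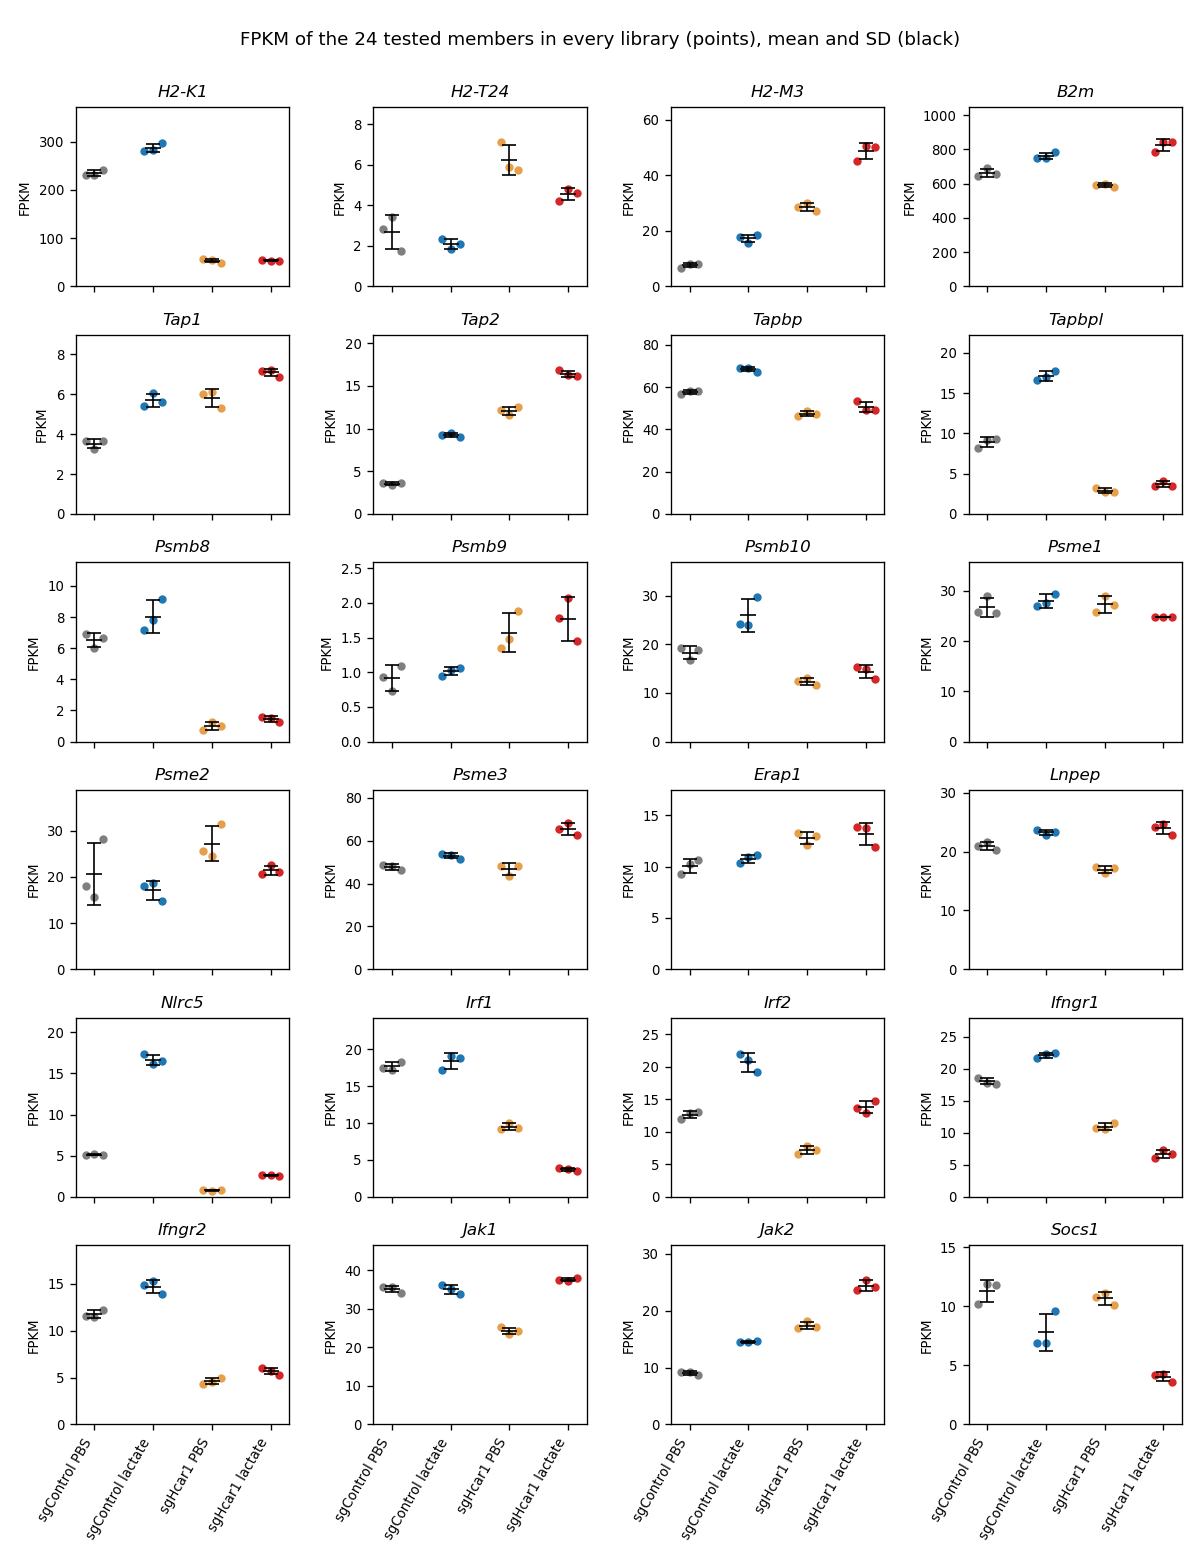
FPKM of the 24 tested members, 1 panel per gene with a linear axis from 0 and the 4 groups along the horizontal axis; points are libraries and black bars are mean and SD (n = 3). H2-K1 fell in 2 levels by guide, 49.3 to 56.4 FPKM in sgHcar1 against 230.0 to 297 FPKM in sgControl libraries, while H2-M3, Tap2 and Jak2 were higher in sgHcar1 libraries.

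The class I heavy chains went in opposite directions between the guides. H2-K1, the classical heavy chain H-2K, was at 231, 230.0 and 242 FPKM in sgControl cells in PBS and at 281, 282 and 297 FPKM in lactate. The sgHcar1 libraries held 56.4, 54.6 and 49.3 FPKM with vehicle and 55.1, 52.2 and 53.4 FPKM with lactate. The 6 sgHcar1 libraries thus lay far below the 6 sgControl libraries, and lactate separated the libraries only in sgControl cells. H2-K1 was 4.39-fold lower in sgHcar1 cells in PBS (log2 difference -2.11 ± 0.05, adjusted p = 7.77e-12) and 5.35-fold lower in lactate (-2.40 ± 0.05, adjusted p = 2.35e-12). Lactate raised H2-K1 by 0.29 ± 0.05 in sgControl cells (adjusted p = 0.000231), its change in sgHcar1 cells was 0.01 ± 0.05 (adjusted p = 0.934), and the 2 effects differed by -0.28 ± 0.07 (adjusted p = 0.00365). The value in sgHcar1 cells passed as a fall under 3 of 4 other scalings, at -0.18 with a sum of 1000000 FPKM, -0.11 with quantile normalization and -0.22 with the scaling to fragments, and median-ratio scaling left it without a call. Where values follow for "the 3 scalings", they stand in this order.

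H2-M3, a nonclassical heavy chain that presents N-formylated peptides, had the opposite guide difference and rose with lactate in both populations. Its libraries in PBS were at 6.73, 8.04 and 7.91 FPKM in sgControl and at 28.5, 30.1 and 27.3 FPKM in sgHcar1 cells. In lactate they were at 17.8, 15.7 and 18.4 FPKM and at 45.3, 50.4 and 50.3 FPKM. No 2 groups overlapped. H2-M3 was 3.78-fold higher in sgHcar1 cells in PBS (1.79 ± 0.07, adjusted p = 1.52e-09), and lactate raised it 2.29-fold in sgControl cells (1.10 ± 0.07) and 1.70-fold in sgHcar1 cells (0.75 ± 0.07), with a difference of -0.35 ± 0.10 between the effects (adjusted p = 0.0143). H2-T24, another nonclassical heavy chain gene, was low, at 1.76 to 3.41 FPKM over the sgControl and 4.24 to 7.11 FPKM over the sgHcar1 libraries, and was 2.34-fold higher in sgHcar1 cells in PBS (1.00 ± 0.15, adjusted p = 7.58e-05). Its fall with lactate in sgHcar1 cells (-0.38 ± 0.15, adjusted p = 0.0382) did not pass without any 1 of 5 of the 6 libraries concerned, nor with a pseudocount of 0.1 or no filter on low values. Heavy chain genes are near copies of each other, and how the authors' counting split reads between them was not given in the sources used here, so these levels are uncertain, and part of a read total may belong to H2-D1 or another relative.

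B2m, the light chain shared by the heavy chains, was the most abundant member and did not follow H2-K1. It was at 642, 689 and 656 FPKM in sgControl PBS libraries and at 749, 750.2 and 785 FPKM in lactate. The sgHcar1 libraries were at 594, 599.8 and 580.0 FPKM in PBS and at 787, 844 and 845 FPKM in lactate. Lactate separated the libraries in both populations. It raised B2m by 0.20 ± 0.04 in sgControl (adjusted p = 0.000809) and by 0.48 ± 0.04 in sgHcar1 cells (adjusted p = 5.6e-07), a difference of 0.28 ± 0.05 (adjusted p = 0.00119) that was 0.0473, -0.0001 and 0.0945 under the 3 scalings and then did not pass. In PBS B2m was 1.12-fold lower in sgHcar1 cells (-0.16 ± 0.04, adjusted p = 0.0025). The difference in lactate, 0.12 ± 0.04 (adjusted p = 0.0167), turned to -0.30, -0.60 and -0.10 under the 3 scalings and was lost, at 0.0978 to 0.105, without any 1 of 4 of the 6 lactate libraries.

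The promoters of these genes share short stretches of letters. Promoter sequences came from RefSeq (GRCm38.p6) for 27 of the 32 members, not for H2-T24, Tap2, Tapbpl, Nlrc5 and Cd1d1, and the 250 bases before the start were searched on both strands. The letters TGACG and ATTGG with 20 bases between them occur in 4 members, H2-K1, H2-D1, H2-M3 and B2m, and in 30 of 32851 promoters (0.0913%). This spacing was chosen after the sequences were read, since TGACG resembles the X2 box and ATTGG is the inverted CCAAT of the Y box in the class I element at which NLRC5 acts. They are shown because they set the heavy chains beside the light chain, with TGACG and ATTGG in capitals, at chr17:34000359-34000388 (minus strand) for H2-K1, chr17:35262993-35263022 (plus) for H2-D1, chr17:37270188-37270217 (plus) for H2-M3 and chr2:122147609-122147638 (plus) for B2m.
H2-K1: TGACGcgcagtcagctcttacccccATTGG
H2-D1: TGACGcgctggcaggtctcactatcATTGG
H2-M3: TGACGcttctccaattcccattctaATTGG
B2m: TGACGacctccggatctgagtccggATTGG

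Interferon response letters lay upstream of these. A shared decamer, the capitals in the short stretches of H2-K1 and H2-M3 given here, also chosen after the sequences were read, was in 6 members, H2-K1, H2-D1, H2-Q4, H2-Q6, H2-Q7 and H2-M3, and in 0.131% of promoters. It is printed with 5 bases on each side, at chr17:34000423-34000442 (minus) for H2-K1 and chr17:37270128-37270147 (plus) for H2-M3. In B2m an interferon response core (GAAA, any 2 bases, GAAA; in 2.98% of promoters and in 5 members, H2-T22, H2-T23, B2m, Irf2 and Socs1) stands 3 bases before a kappa B match (GGGA, any 2 bases, TTCC, on the opposite strand; in 1.21% and in 2 members, B2m and Ifngr2), and the stretch from there to ATTGG is given with these letters in capitals, at chr2:122147548-122147638.
H2-K1: cacagTTTCACTTCTgcacc
H2-M3: tgaggTTTCACTTCTctgta
B2m: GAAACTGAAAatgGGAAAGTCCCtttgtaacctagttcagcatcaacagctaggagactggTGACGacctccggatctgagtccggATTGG

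TGACG alone (17.8% of promoters) was in 12 members, the 4 above among them. The motif called GAS (TTC, any 3 bases, GAA) was in 4 members, H2-M3, Psmb8, Irf1 and Irf2, and in 7.02% of promoters. It was fixed before the search, as were TGACG, the interferon response core and the kappa B letters. H2-K1 and H2-M3, which share both the decamer and the spaced pair, had opposite differences between the guides, as given above. Matches describe letters and not occupancy. Distances are to the RefSeq start used for each promoter. The RefSeq gene span of H2-K1, chr17:33996012-34000619, begins upstream of that start, so the stretches printed for H2-K1 lie within the span.

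Peptide transport and loading rose with lactate in all 4 members in both populations as deposited, and in all 4 the rise was smaller in sgHcar1 cells. Tap2, a TAP transporter chain, had 3.66, 3.34 and 3.66 FPKM in sgControl cells in PBS and 9.22, 9.53 and 9.04 FPKM in lactate. In sgHcar1 cells it had 12.1, 11.6 and 12.5 FPKM with vehicle and 16.8, 16.2 and 16.2 FPKM with lactate. The untreated sgHcar1 libraries were above the treated sgControl libraries. Lactate raised Tap2 2.61-fold in sgControl (1.17 ± 0.04, adjusted p = 9.28e-10) and 1.36-fold in sgHcar1 cells (0.41 ± 0.04, adjusted p = 3.03e-06), a difference of -0.76 ± 0.06 (adjusted p = 1.19e-06), and in PBS it was 3.40-fold higher in sgHcar1 cells (1.52 ± 0.04, adjusted p = 3.48e-11). These calls held under each alternative in which Tap2 was fitted.

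Tap1, the partner chain, was at 3.27 to 3.66 FPKM in sgControl PBS, 5.42 to 6.04 in sgControl lactate, 5.32 to 6.13 in sgHcar1 PBS and 6.87 to 7.21 FPKM in sgHcar1 lactate libraries. Lactate raised it by 0.56 ± 0.06 and 0.25 ± 0.06 in the 2 populations (difference -0.32 ± 0.08, adjusted p = 0.00713), and the rise in sgHcar1 cells was 0.09 and 0.05, and did not pass, with a sum of 1000000 FPKM and with the scaling to fragments. In PBS Tap1 was 1.65-fold higher in sgHcar1 cells (0.59 ± 0.06, adjusted p = 2.87e-06). Its difference in lactate, 0.27 ± 0.06 (adjusted p = 0.00111), became -0.09 and 0.09 under those scalings and did not pass.

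The loading editors showed the reverse guide difference. Tapbpl, which encodes the tapasin-related editor TAPBPR, was at 8.18, 9.18 and 9.32 FPKM in sgControl PBS libraries and at 16.6, 17 and 17.8 FPKM in lactate. In sgHcar1 cells it was at 3.23, 2.71 and 2.72 FPKM in PBS and at 3.44, 4.14 and 3.47 FPKM in lactate. All sgHcar1 libraries were below all sgControl libraries. Tapbpl was 3.08-fold lower in sgHcar1 cells in PBS (-1.35 ± 0.07, adjusted p = 1.57e-08) and 4.65-fold lower in lactate (-1.96 ± 0.07, adjusted p = 4.93e-10), and lactate raised it 1.93-fold in sgControl cells (0.88 ± 0.07, adjusted p = 1.19e-06). The rise in sgHcar1 cells, 0.27 ± 0.07 (adjusted p = 0.00654), fell to 0.15 and 0.09 and did not pass under the scalings to a sum and to fragments. Tapbp, tapasin itself, was at 56.5 to 58.4 and 67.2 to 69.1 FPKM in sgControl PBS and lactate libraries and at 46.3 to 48.8 and 49.1 to 53.4 FPKM in sgHcar1 libraries. Its rise was 0.24 ± 0.03 in sgControl cells (adjusted p = 8.76e-05). The rise of 0.09 ± 0.03 in sgHcar1 cells (adjusted p = 0.0375) turned to -0.0941 and -0.0412, with no call, under the sum of 1000000 FPKM and quantile normalization, and to -0.13, which passed as a fall, with the scaling to fragments. It also did not pass with a replicate block, no variance trend, no filter or only the compared groups in the fit, or without any 1 of 3 libraries, sgHcar1 PBS replicate 1 or 3 or sgHcar1 lactate replicate 1, with values of 0.05 to 0.09. Tapbp was 1.21-fold lower in sgHcar1 cells in PBS (-0.27 ± 0.03, adjusted p = 2.26e-05).

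**Figure D2:**
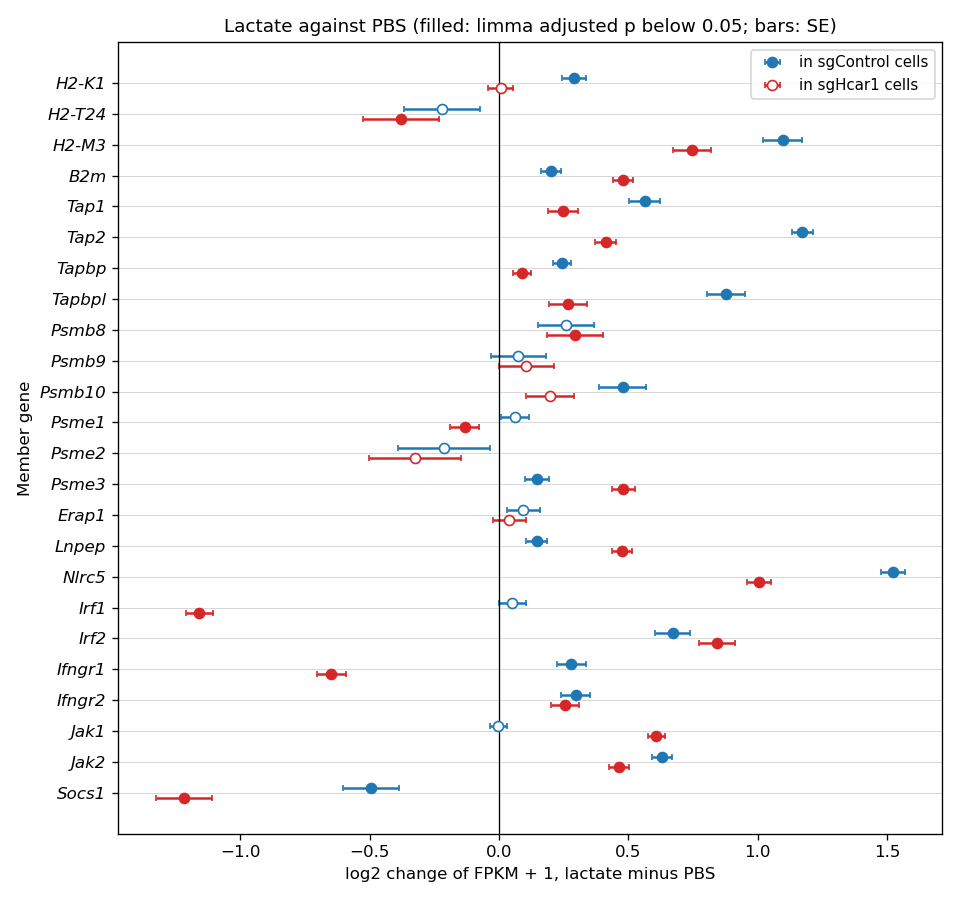
Change of each tested member with lactate, as the difference of log2(FPKM + 1) ± SE (horizontal axis), in sgControl cells (blue) and in sgHcar1 cells (red); filled circles passed an adjusted p of 0.05 in limma. In sgControl cells 15 members lie to the right as filled circles, Nlrc5 farthest at 1.52, and in sgHcar1 cells Socs1, Irf1 and Ifngr1 lie farthest to the left at -1.22, -1.16 and -0.65.

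The immunoproteasome subunits did not move together. Psmb8 (LMP7) was at 6.88, 6.02 and 6.66 FPKM in sgControl PBS libraries and at 7.14, 7.79 and 9.17 FPKM in lactate. In sgHcar1 cells it was near 1 FPKM, at 0.734, 1.26 and 1.03 in PBS and 1.61, 1.49 and 1.26 FPKM in lactate, where 30 to 59 fragments stand behind each value. Psmb8 was 6.45-fold lower in sgHcar1 cells in PBS (-1.91 ± 0.11, adjusted p = 2.21e-08) and 5.53-fold lower in lactate (-1.88 ± 0.11, adjusted p = 1.95e-08), and none of the libraries of the 2 guides overlapped. Its lactate effects, 0.26 ± 0.11 in sgControl (adjusted p = 0.0544) and 0.29 ± 0.11 in sgHcar1 cells (adjusted p = 0.0301), lie on either side of the threshold and did not differ detectably (0.03 ± 0.15, adjusted p = 0.869). The first passed, at 0.33, without sgControl lactate replicate 1 and, at 0.29, with limma voom. The other did not pass, at 0.19 to 0.31, without any 1 of 4 of its 6 libraries, nor at 0.27 and 0.17 with the scalings to a sum and to fragments. It also did not pass with no filter, only the compared groups in the fit or limma voom.

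Psmb9 (LMP2) was close to the filter, at 0.729 to 1.09 FPKM in sgControl and 1.35 to 2.08 FPKM in sgHcar1 libraries. It was 1.71-fold higher in sgHcar1 cells in PBS (0.42 ± 0.11, adjusted p = 0.00354) and passed for neither lactate effect (0.07 ± 0.11, adjusted p = 0.564, and 0.11 ± 0.11, adjusted p = 0.398). Its guide difference in lactate, 0.45 ± 0.11 (adjusted p = 0.00202), was 0.30 and did not pass with a sum of 1000000 FPKM. Psmb10 (MECL-1) was at 16.8 to 19.2 FPKM in sgControl PBS, 24 to 29.8 in sgControl lactate, 11.6 to 13 in sgHcar1 PBS and 12.8 to 15.3 FPKM in sgHcar1 lactate libraries. Lactate raised it 1.42-fold in sgControl cells (0.48 ± 0.09, adjusted p = 0.000797), its change in sgHcar1 cells was 0.20 ± 0.09 (adjusted p = 0.0741), and the difference of -0.28 ± 0.13 did not pass (adjusted p = 0.0862), though it did under the 3 scalings at -0.51, -0.35 and -0.45. Psmb10 was 1.48-fold lower in sgHcar1 cells in PBS (-0.53 ± 0.09, adjusted p = 0.000277).

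A ratio of 2 genes within a library does not depend on how libraries are scaled by a factor. Of the constitutive subunits that LMP2 and MECL-1 replace, Psmb6 fell with lactate in sgControl cells from 83.3 ± 3.09 to 59.7 ± 1.58 FPKM (-0.47 ± 0.04, adjusted p = 1.82e-06), and Psmb7 fell from 31.5 ± 0.352 to 17.5 ± 0.621 FPKM (-0.81 ± 0.05, adjusted p = 4.31e-08). In sgHcar1 cells Psmb6 changed by 0.21 ± 0.04 and Psmb7 by 0.20 ± 0.05 as deposited, and by -0.0095 and -0.0212 with the scaling to fragments. The share of Psmb10 in Psmb10 plus Psmb7 was 38.2%, 34.8% and 37.2% in sgControl PBS libraries and 58.8%, 56.9% and 63% in lactate. In sgHcar1 cells it was 30%, 29.5% and 28.8% with vehicle and 32.5%, 29.9% and 26.5% with lactate. The share thus rose by 22.8 percentage points in sgControl cells, with no overlap (exact two-sided permutation test, p = 0.1, the smallest that 3 against 3 allows), and by 0.189 points in sgHcar1 cells (exact permutation p = 0.9). The share of Psmb9 in Psmb9 plus Psmb6 was 1.08% ± 0.176 and 1.67% ± 0.086 in sgControl cells (SD, n = 3; exact permutation p = 0.1) and 3.35% ± 0.696 and 3.25% ± 0.692 in sgHcar1 cells (exact permutation p = 0.9). H2-K1 relative to B2m was 0.354 ± 0.0181 and 0.376 ± 0.00203 in sgControl and 0.0903 ± 0.005 and 0.0651 ± 0.00439 in sgHcar1 cells, in PBS and lactate (exact permutation p = 0.1 for each of the 4 pairwise comparisons). Without sgControl PBS replicate 2 the lactate difference of this ratio in sgControl cells went from 0.0221 to 0.0119. Across the 3 ratios, 12 such tests were run, and the design allows no p below 0.1 before adjustment.

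**Figure D3:**
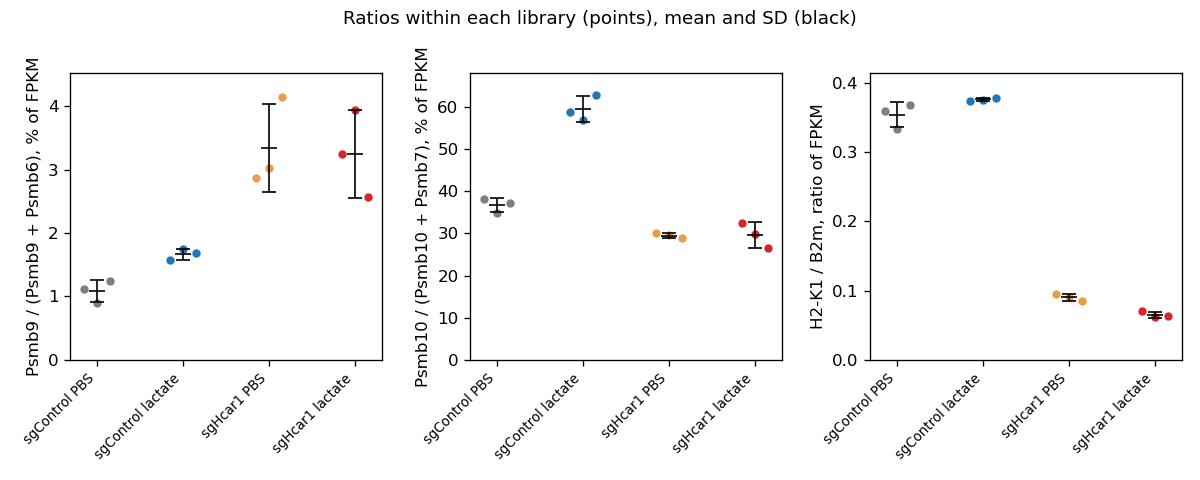
Ratios of FPKM within each library (points) with mean and SD (black, n = 3), for Psmb9 as a percent of Psmb9 plus Psmb6, Psmb10 as a percent of Psmb10 plus Psmb7, and H2-K1 divided by B2m, in the 4 groups along the horizontal axis. The share of Psmb10 rises from 36.7% to 59.6% with lactate in sgControl cells and stays between 26.5% and 32.5% in sgHcar1 libraries, and the ratio of H2-K1 to B2m is below 0.1 in all sgHcar1 libraries.

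Of the proteasome activators, Psme3 rose with lactate in both populations as deposited. Psme1 and Psme2 encode the interferon-inducible PA28 alpha and beta, and Psme3 encodes the nuclear PA28 gamma. Psme1 was at 24.7 to 29.5 FPKM over all 12 libraries, and its calls, a fall with lactate in sgHcar1 cells (-0.13 ± 0.05, adjusted p = 0.0477) and the difference of the lactate effects (-0.20 ± 0.08, adjusted p = 0.0486), were lost without any 1 of 5 and 9 libraries respectively. Both calls were also lost with no filter or no variance trend, and the difference of effects with a pseudocount of 0.1 or median-ratio scaling. The guide difference of Psme1 in lactate, -0.17 ± 0.05 (adjusted p = 0.0154), was lost without sgControl lactate replicate 3, at -0.13. Psme2 was scattered, at 17.9, 15.6 and 28.2 FPKM in sgControl PBS libraries, so that replicate 3 stood apart, and at 24.5 to 31.5 FPKM in sgHcar1 PBS libraries. Its guide difference in PBS, 0.43 ± 0.18 (adjusted p = 0.0488), was lost under 7 other scalings and settings, a replicate block included, and without any 1 of 4 libraries, sgControl PBS replicate 1 or 2 or sgHcar1 PBS replicate 1 or 3, at 0.26 to 0.46. Its lactate effects were -0.21 ± 0.18 in sgControl (adjusted p = 0.322) and -0.33 ± 0.18 in sgHcar1 cells (adjusted p = 0.126). The latter passed as a fall at -0.52 and -0.54 with the scalings to a sum and to fragments, at -0.33 with only the compared groups in the fit and at -0.34 with limma voom. Psme3 was at 46.3 to 48.5 and 51.6 to 54 FPKM in sgControl PBS and lactate libraries and at 43.6 to 48.3 and 62.6 to 68.4 FPKM in sgHcar1 libraries. Lactate raised Psme3 1.40-fold in sgHcar1 cells (0.48 ± 0.04, adjusted p = 2.01e-06), and by 0.15 ± 0.04 in sgControl cells (adjusted p = 0.0139), the latter lost, at 0.13, without sgControl PBS replicate 3 and, at 0.11, with the scaling to fragments. Its guide difference in lactate, 0.30 ± 0.04 (adjusted p = 7.49e-05), was -0.11, 0.0624 and 0.0882 under the 3 scalings and was no longer a called rise. The difference between these effects, 0.33 ± 0.06 (adjusted p = 0.000986), did not pass under the 3 scalings, at 0.11, 0.11 and 0.15.

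Of the aminopeptidases, Lnpep rose with lactate in both populations as deposited and Erap1 passed in neither. Erap1 trims peptides in the ER, and Lnpep (IRAP) trims them in endosomes for cross-presentation. Erap1 was at 9.31 to 11.1 FPKM in sgControl and 12 to 13.9 FPKM in sgHcar1 libraries, 1.27-fold higher in PBS (0.32 ± 0.06, adjusted p = 0.000736), a difference of 0.16 that did not pass with a sum of 1000000 FPKM, and passed for neither lactate effect (0.09 ± 0.06, adjusted p = 0.216, and 0.04 ± 0.06, adjusted p = 0.605). The lactate value of Erap1 in sgHcar1 cells became a fall of -0.17 with the scaling to fragments, and its guide difference in lactate, 0.27 ± 0.06 (adjusted p = 0.00234), became -0.12 and 0.0667 with the scalings to a sum and to fragments. Lnpep was at 20.2 to 21.7 and 22.8 to 23.7 FPKM in sgControl PBS and lactate libraries and at 16.3 to 17.3 and 22.8 to 24.8 FPKM in sgHcar1 libraries. It rose with lactate by 0.15 ± 0.04 in sgControl (adjusted p = 0.00657) and by 0.48 ± 0.04 in sgHcar1 cells (adjusted p = 6.2e-07), and the difference of 0.33 ± 0.05 (adjusted p = 0.000381) was 0.11 and did not pass with a sum of 1000000 FPKM. Lnpep libraries of the 2 guides overlapped in lactate (0.04 ± 0.04, adjusted p = 0.374), a value that passed as -0.37 and -0.17 with the scalings to a sum and to fragments.

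Among the transcription factors, Nlrc5 had the largest lactate rise of all members. It was at 5.13, 5.17 and 5.11 FPKM in sgControl PBS libraries and at 17.3, 16.1 and 16.5 FPKM in lactate. The sgHcar1 libraries were at 0.831, 0.724 and 0.88 FPKM in PBS and at 2.67, 2.69 and 2.55 FPKM in lactate. No 2 groups overlapped, and the treated sgHcar1 libraries stayed below the untreated sgControl libraries. The ratio of lactate to PBS was 3.24-fold in sgControl and 3.25-fold in sgHcar1 cells, and Nlrc5 was 6.33-fold lower in sgHcar1 cells in PBS (-1.76 ± 0.04, adjusted p = 2.37e-11) and 6.32-fold lower in lactate (-2.28 ± 0.04, adjusted p = 2.44e-12). On the scale with 1 FPKM added the lactate rises were 1.52 ± 0.04 and 1.01 ± 0.04, and their difference passed (-0.52 ± 0.06, adjusted p = 4.09e-05). It was -0.0878 with a pseudocount of 0.1 and 0.0006 with limma voom on the recovered fragments, and passed with neither. Between 87 and 2375 fragments stand behind these values.

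Irf1 encodes the interferon-induced activator of class I genes. Its libraries were at 17.5, 17.2 and 18.3 FPKM in sgControl PBS and at 17.1, 19.1 and 18.8 FPKM in sgControl lactate, with overlap. In sgHcar1 cells they were at 9.19, 10 and 9.27 FPKM in PBS and at 3.86, 3.79 and 3.48 FPKM in lactate, with no overlap. Lactate lowered Irf1 2.56-fold in sgHcar1 cells (-1.16 ± 0.05, adjusted p = 3.94e-09) and changed it by 0.05 ± 0.05 in sgControl cells (adjusted p = 0.418), and the difference of -1.21 ± 0.07 (adjusted p = 2.64e-07) was the largest among the members. Irf1 was 1.86-fold lower in sgHcar1 cells in PBS (-0.83 ± 0.05, adjusted p = 5.07e-08) and 4.95-fold lower in lactate (-2.04 ± 0.05, adjusted p = 1.97e-11). Irf2, a relative that competes with IRF1 for its element and can also activate class I pathway genes, moved otherwise. It was at 12, 12.9 and 13 FPKM in sgControl PBS libraries and 22, 21 and 19.1 FPKM in lactate, and at 6.66, 7.85 and 7.21 FPKM and 13.7, 12.9 and 14.7 FPKM in sgHcar1 libraries. Lactate raised it 1.64-fold and 1.90-fold (0.67 ± 0.07 and 0.84 ± 0.07; difference 0.17 ± 0.10, adjusted p = 0.149), and it was 1.74-fold lower in sgHcar1 cells in PBS (-0.73 ± 0.07, adjusted p = 1.68e-06). The calls of Irf1 and Irf2 held under each alternative run.

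The interferon gamma receptor was lower in sgHcar1 cells in both chains. Ifngr1, the ligand-binding chain, was at 18.6, 17.9 and 17.7 FPKM in sgControl PBS libraries and at 21.7, 22.3 and 22.4 FPKM in lactate. In sgHcar1 cells it was at 10.7, 10.6 and 11.6 FPKM in PBS and at 6.02, 7.28 and 6.63 FPKM in lactate. It is the member whose libraries separated in opposite directions: lactate raised it by 0.28 ± 0.06 in sgControl (adjusted p = 0.00104) and lowered it in sgHcar1 cells (-0.65 ± 0.06, adjusted p = 1e-06), a difference of -0.93 ± 0.08 (adjusted p = 2.86e-06). The guide difference was thus 1.65-fold in PBS (-0.67 ± 0.06, adjusted p = 6.02e-07) and 3.33-fold in lactate (-1.60 ± 0.06, adjusted p = 2.7e-10). Ifngr2, the signalling chain, was at 11.5 to 12.2 and 13.9 to 15.2 FPKM in sgControl PBS and lactate libraries and at 4.35 to 4.98 and 5.31 to 6.02 FPKM in sgHcar1 libraries. It was 2.55-fold and 2.58-fold lower in sgHcar1 cells in PBS and lactate (-1.19 ± 0.06, adjusted p = 4.08e-09, and -1.23 ± 0.06, adjusted p = 2.28e-09). Its lactate rises were 0.30 ± 0.06 and 0.25 ± 0.06, the latter of which was 0.11 and 0.07 and did not pass with the scalings to a sum and to fragments.

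The receptor-associated kinases and their inhibitor also differed. Jak1 was at 35.6, 35.5 and 34.1 FPKM in sgControl PBS and 36.1, 35 and 33.8 FPKM in sgControl lactate libraries, with overlap, and went from 25.1, 23.4 and 24.2 FPKM to 37.4, 37.1 and 37.9 FPKM in sgHcar1 cells. Lactate raised it 1.55-fold in sgHcar1 cells (0.61 ± 0.03, adjusted p = 2.15e-08) against -0.00 ± 0.03 in sgControl cells (adjusted p = 0.956), with a difference of 0.61 ± 0.05 (adjusted p = 1.43e-06). Jak1 was 1.45-fold lower in sgHcar1 cells in PBS (-0.51 ± 0.03, adjusted p = 7.27e-08), and its difference in lactate, 0.10 ± 0.03 (adjusted p = 0.0188), turned to -0.31, -0.0684 and -0.11 under the 3 scalings and was lost without replicate 3 of either guide in lactate, at 0.0737 and 0.089. Jak2 was higher in sgHcar1 cells, at 16.9 to 18.1 FPKM in PBS and 23.6 to 25.4 in lactate, against 8.63 to 9.28 and 14.4 to 14.6 FPKM in sgControl libraries. It rose 1.61-fold and 1.40-fold with lactate (0.63 ± 0.04 and 0.47 ± 0.04), and the difference of -0.16 ± 0.05 (adjusted p = 0.025) did not pass, at -0.13 to -0.16, without any 1 of 5 libraries. Socs1, the feedback inhibitor of JAK signalling, was the only member lower with lactate in both populations. It was at 10.2, 11.9 and 11.8 FPKM in sgControl PBS and 6.87, 6.94 and 9.6 FPKM in sgControl lactate libraries, and went from 10.76, 11.15 and 10.098 FPKM to 4.17, 4.31 and 3.59 FPKM in sgHcar1 cells. The libraries did not overlap in either population, and the falls were -0.49 ± 0.11 (adjusted p = 0.00205) and -1.22 ± 0.11 (adjusted p = 1.39e-06), with a difference of -0.72 ± 0.15 (adjusted p = 0.00205). In PBS the guides did not differ detectably in Socs1 (-0.07 ± 0.11, adjusted p = 0.555).

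**Figure D4:**
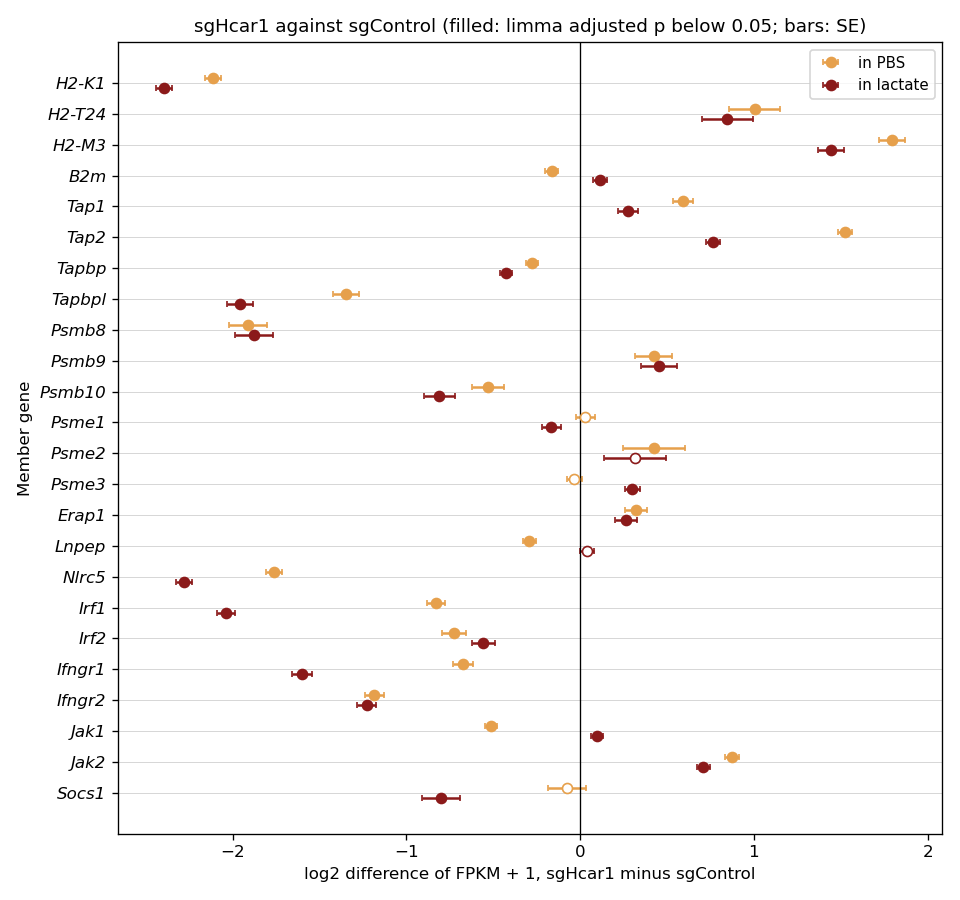
Difference of each tested member between sgHcar1 and sgControl cells, as log2(FPKM + 1) ± SE (horizontal axis), in PBS (orange) and in lactate (dark red); filled circles passed an adjusted p of 0.05 in limma. In PBS H2-K1, Psmb8, Nlrc5 and Tapbpl lie farthest to the left, at -2.11, -1.91, -1.76 and -1.35, and H2-M3 and Tap2 farthest to the right, at 1.79 and 1.52.

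Interferon signalling genes outside the list were set beside these members, since several members are interferon targets. Of 19 tested, 11 were higher and 5 lower in sgHcar1 cells in PBS, with a median of 0.43, against 38.2% and 38.4% of all genes. The 5 lower genes, named after their values were seen, were Socs3 (-0.72), Ifnar1 (-0.71), Ifnar2 (-0.46), Stat3 (-0.45) and Tyk2 (-0.32 on the log2 scale), which encode a signalling inhibitor, both type I receptor chains, a transcription factor and a receptor kinase. The genes described next were all higher. Gbp2, an interferon-inducible GTPase, was 9.18-fold higher (2.52 ± 0.10), Irf7, a driver of type I interferon responses, 17.2-fold (3.26 ± 0.11), and Usp18, an interferon-induced brake on the type I receptor, 75.1-fold (4.11 ± 0.08). These folds divide by low sgControl PBS means, of 1.38, 1.12 and 0.282 FPKM in that order, against 12.6, 19.3 and 21.2 FPKM in sgHcar1 PBS libraries. Within these same libraries H2-K1, Psmb8, Nlrc5 and Tapbpl were lower and Tap1, Tap2 and Psmb9 higher. With lactate 14 of 19 rose and 1 fell in sgControl cells and 13 rose and 2 fell in sgHcar1 cells, where 33.9% and 36.8% of all genes rose, Gbp2 by 0.57 ± 0.10 and 0.69 ± 0.10.

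**Figure D5:**
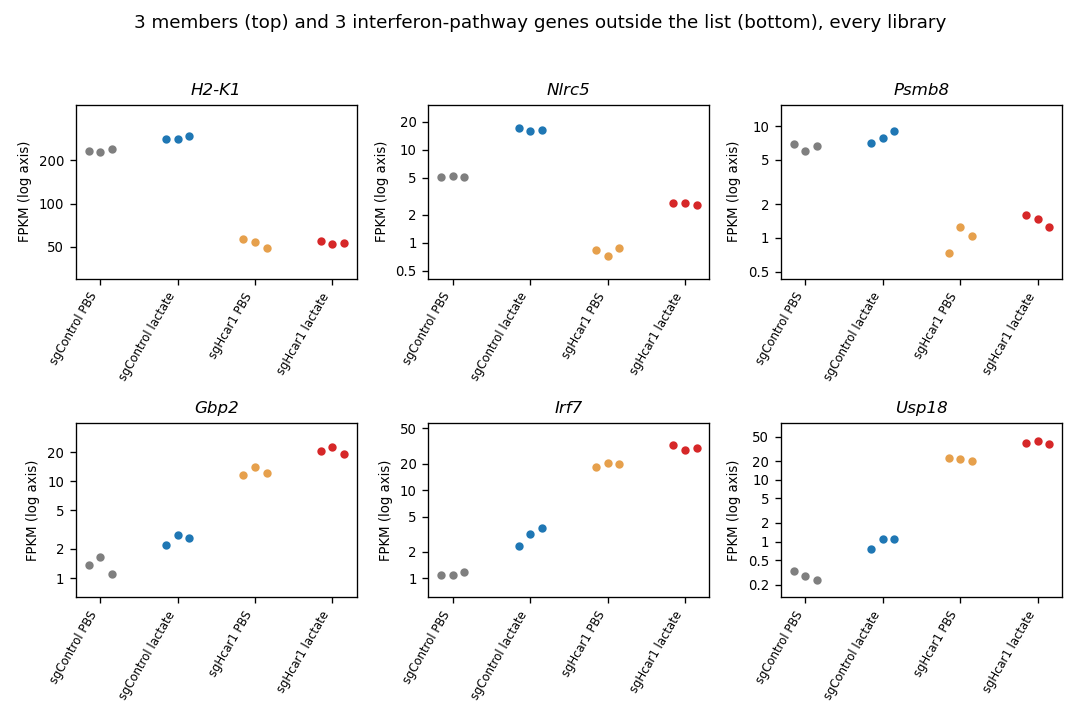
FPKM of every library on a log axis for 3 members (H2-K1, Nlrc5 and Psmb8, top) and 3 interferon-pathway genes outside the list (Gbp2, Irf7 and Usp18, bottom), with the 4 groups along the horizontal axis. In each top panel all sgHcar1 libraries are below all sgControl libraries in the same medium, and in each bottom panel all are above.

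Of 12 tested genes of peptide loading and folding in the ER, 8 rose with lactate, 3 fell and 1 did not pass in sgControl cells, and 8 rose, 2 fell and 2 did not pass in sgHcar1 cells. The medians were 0.50 and 0.83, and 33.9% and 36.8% of all genes rose. The genes that fell were Ganab, Sec61g and P4hb in sgControl cells, by 0.10, 0.51 and 0.35 on the log2 scale, and Erp29 and P4hb in sgHcar1 cells, by 0.13 and 0.11. The difference of the lactate effects was higher for 10 and lower for 1 as deposited, against 30.4% and 28.7% of all genes. These counts under the other scalings are not given here. Calr, calreticulin of the peptide-loading complex, rose from 246 to 753 FPKM in sgControl and from 141 to 746 FPKM in sgHcar1 cells (1.61 ± 0.03 and 2.40 ± 0.03), and Hspa5, the ER chaperone BiP, rose 9.68-fold and 8.67-fold. Pdia4, a protein disulfide isomerase, rose 3.22-fold and 4.25-fold, and Sec61a1, of the ER translocon, 2.02-fold and 3.01-fold. Among 8 tested peptidases of antigen processing 3 rose and 5 fell in sgControl cells and 4 rose and 2 fell in sgHcar1 cells. Of all genes 33.9% rose and 31.9% fell in sgControl cells, and 36.8% rose and 35.4% fell in sgHcar1 cells. Npepps, a cytosolic aminopeptidase, fell by 0.65 on the log2 scale in sgControl cells and changed by 0.03 ± 0.05 in sgHcar1 cells (adjusted p = 0.597), a value of -0.15 and -0.18 that passed as a fall with the scalings to a sum and to fragments. Tpp2, a cytosolic peptidase that trims proteasome products, rose by 0.24 ± 0.04 and 0.84 ± 0.04, Nrd1 (nardilysin) by 0.11 ± 0.02 and 0.79 ± 0.02, and Ctsl, cathepsin L, by 0.53 ± 0.03 and 0.41 ± 0.03.

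Of 13 tested factors that act on class I promoters, 7 rose with lactate, 2 fell and 4 did not pass in sgControl cells, and 9 rose, 3 fell and 1 did not pass in sgHcar1 cells, against the same 33.9% and 36.8% of all genes higher. The NF-kappa B subunit genes Relb and Rela rose 2.36-fold and 1.85-fold in sgControl cells and 5.16-fold and 2.15-fold in sgHcar1 cells, and Nfkb2 rose 2.04-fold and 1.80-fold. The 2 that fell in sgControl cells were Nfya (-0.46) and Nfyb (-0.29 on the log2 scale). The 3 that fell in sgHcar1 cells were Rfxap (-0.69), Nfyc (-0.49) and Nfya (-0.25). Between guides in PBS 4 of the 13 were higher in sgHcar1 cells, 5 were lower and 4 did not pass, against 38.2% higher and 38.4% lower of all genes. The 5 lower were Rfxank, Rela (-0.83), Relb (-0.57), Rfx5 (-0.34) and Nfkb1 (-0.27). Rfxank, part of the RFX complex that joins NLRC5 at class I promoters, was 2.59-fold lower in sgHcar1 cells in PBS (4.07 and 1.58 FPKM, -0.98 ± 0.07, adjusted p = 1.67e-07). Of 23 other class I and class I-like genes 4 were tested, and all 4 rose in sgControl cells, against 33.9% of all genes. Procr, the endothelial protein C receptor with a class I-like fold, rose from 14.3 to 29.1 FPKM in sgControl and from 5.88 to 51.7 FPKM in sgHcar1 cells, with a difference between the effects of 1.96 ± 0.06 (adjusted p = 3.62e-09). Mr1, which presents microbial vitamin metabolites, was at 1.86 and 2.97 FPKM in sgControl and at 0.464 and 0.927 FPKM in sgHcar1 cells. Fcgrt, the neonatal Fc receptor, rose 1.58-fold and 1.62-fold. Hfe, the iron regulator that pairs with B2m, rose 1.67-fold in sgControl cells and changed by -0.00 ± 0.13 in sgHcar1 cells (adjusted p = 0.994). Of 9 other NKG2D ligands 1 had an entry and 0 were tested. Of 9 class II genes, 2 passed the filter: Cd74, the class II invariant chain, rose 4.75-fold and 7.08-fold, to 5.29 and 16.8 FPKM, and H2-DMa, a peptide exchanger, rose 1.46-fold and 1.79-fold, to 1.98 and 3.26 FPKM, while the class II chain gene H2-Aa was listed at 0 in all libraries.

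Position and overlap complete the account of the members. Of the 25 members with an entry, 10 lie on chromosome 17, which holds the MHC. Psmb9, Tap1, Psmb8 and Tap2 stand side by side there, within chr17:34182030-34216321 (GRCm38), and among these neighbours Tap1, Tap2 and Psmb9 were higher and Psmb8 was lower in sgHcar1 cells in PBS. The exons of 10 of the 24 tested members overlap those of another gene in the GENCODE M21 annotation, as those of Tap1 and Psmb9 do over 212 bases on opposite strands, and those of Erap1 and Cast over 834 bases. The gene lengths implied by the FPKM steps matched this annotation within 0.1% for 14 of the 24 members. H2-K1 (2608 against 2938 bases), Psmb10 (1270 against 1705), Erap1 (4007 against 7280) and Lnpep (5181 against 14144) did not match. Neither did Psmb8, Tapbp, Nlrc5, Irf2, Ifngr2 and Socs1. The deposited gene identifiers of the members carry the strain name C57BL6NJ and are not GENCODE identifiers. Positions and overlaps given here are those of RefSeq and GENCODE M21, and the gene models that were counted may overlap otherwise. Whether the authors' counting used strand is not given in the sources used here, so how reads in these stretches were assigned is not known.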

How the data were processed

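Per the labels' protocols, RNA came from Trizol extraction, and 1 µg of it entered an Illumina TruSeq library. The authors deposited FPKM per gene and library, per the file headers; per the submitters' processing notes, HISAT2 2.0.5, featureCounts 1.5.0-p3 and GRCm38 were used. Which fragments form the FPKM denominator is not given in the sources used here. Columns were assigned to groups by their letters, those of sgHcar1 by elimination.

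The test was limma 3.58.1 (R 4.3.3) applied to log2(FPKM + 1): 1 mean per group over all 12 libraries, a variance trend, two-sided tests in 5 contrasts, and Benjamini-Hochberg adjustment over 13736 genes (at least 1 FPKM in at least 3 libraries) at 0.05. The fit was tested on simulated data. Whole fragments were recovered from the steps of FPKM (100% of tested genes, tolerance 0.05), with 13239700 to 17754200 fragments in the FPKM denominator per library. Members and gene lists were chosen with earlier results of these data known. Named genes are all members and, of each context list, up to 4 tested genes with the largest change past the threshold in a lactate comparison or between guides in PBS, plus Psmb6, Psmb7 and Hcar1, while 1 other gene is not reported here; marker genes are named as examples. Promoters and their build came from RefSeq tables; gene overlaps came from GENCODE M21. Same-numbered libraries did not deviate together. Alternatives were a pseudocount of 0.1, 2 other filters, 3 scalings, no trend, a replicate block, only the compared groups, a 2-fold minimum and leaving out each library; scaling to the assigned fragments and limma voom on recovered fragments were added after seeing the data. Python 3.11.15, pandas 2.3.3, scipy 1.17.1 and matplotlib 3.10.9 made the tables and figures.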

Additional observations from a re-analysis of the deposited data

Results flagged for a closer look

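The change with lactate differed between sgHcar1 and sgControl cells, by the test of that difference in limma, for 16 of the 24 tested members. This share, 66.7%, was near the 59.1% of all tested genes that passed the same test. As log2 changes of FPKM + 1 in sgHcar1 minus those in sgControl cells, the differences were -0.28 for H2-K1, -0.35 for H2-M3 and 0.28 for B2m. They were -0.32 for Tap1, -0.76 for Tap2, -0.15 for Tapbp and -0.61 for Tapbpl. For the proteasome activators and Lnpep they were -0.20 for Psme1, 0.33 for Psme3 and 0.33 for Lnpep. For the regulators and signalling genes they were -0.52 for Nlrc5, -1.21 for Irf1, -0.93 for Ifngr1, 0.61 for Jak1, -0.16 for Jak2 and -0.72 for Socs1. Those of B2m, Psme1, Psme3, Lnpep, Nlrc5 and Jak2 did not pass under at least 1 alternative given in the report.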

How the results depend on the processing

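Over the members, 2145 values were recomputed under alternatives, of which 1670 passed as reported: 88 of these lost the call, 14 reversed, 15 others gained a call and 7 others passed with the opposite sign. The cause was not tested.

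With a sum of 1000000 FPKM per library, lactate in sgHcar1 cells changed H2-K1 by -0.18, Tapbp by -0.0941 and Npepps by -0.15, and gave 9 members higher. Under that setting the differences of the lactate effects were -0.0214 for Rela and -0.43 for Usp18, with 1 member and 2475 genes higher. Between guides they were -0.15 for Psme1 in PBS, and in lactate -0.30 for B2m, -0.0886 for Tap1, -0.11 for Psme3, -0.12 for Erap1, -0.37 for Lnpep, -0.31 for Jak1, -0.22 for Nrd1 and -0.29 for Npepps, with 4 members and 3580 genes higher. Scaled to the assigned fragments, lactate in sgHcar1 cells gave -0.22 for H2-K1, -0.13 for Tapbp, -0.17 for Erap1, -0.18 for Npepps, -0.0095 for Psmb6 and -0.0212 for Psmb7, with 9 members higher and 9 lower; 2 members were higher in the difference of effects and 5 between guides in lactate, where B2m was -0.10, Lnpep -0.17, Jak1 -0.11 and Nrd1 -0.0217. Quantile normalization gave -0.11 for H2-K1 and -0.0412 for Tapbp with lactate in sgHcar1 cells, -0.0001 for B2m and -0.0712 for Rela in the difference of effects, where 2 members were higher, and -0.60 for B2m and -0.0684 for Jak1 between guides in lactate. Under it the Psmb9 share difference was -0.164 points in the difference of effects and 2.33 between guides in lactate, and the difference in the ratio of H2-K1 to B2m was 0.0579 with lactate in sgControl cells, -0.0816 in the difference of effects, and -0.22 and -0.301 between guides in PBS and lactate. The difference of effects was -0.60 for Usp18 with a pseudocount of 0.1, and -0.85 for Usp18 and 0.0006 for Nlrc5 with limma voom.

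At least 2-fold changes on the log2(FPKM + 1) scale with lactate in sgControl cells were called for 585 genes higher and 405 lower (members 3 and 0), in sgHcar1 cells for 1213 and 846 (1 and 2), in the difference of effects for 575 and 493 (0 and 1), between guides in PBS for 1192 and 1579 (3 and 5) and in lactate for 1764 and 1995 (1 and 7). A mean of at least 5 FPKM, which tests fewer genes, left 3135 lower with lactate in sgHcar1 cells, 2536 lower in the difference of effects, 3491 higher and 3324 lower between guides in PBS and 3346 lower in lactate. With no filter, 3 members were lower with lactate in sgHcar1 cells.

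Leaving out 1 library at a time gave 1 to 2 members lower with lactate in sgControl cells and 3 to 4 in sgHcar1 cells. The ratio of H2-K1 to B2m then ranged from 0.0119 to 0.0293 with lactate in sgControl cells, from -0.0546 to -0.0372 in the difference of effects and from -0.274 to -0.257 between guides in PBS, the values 0.0119, -0.0372 and -0.274 being those without sgControl PBS replicate 2. Replicate numbers paired no samples: of 18 same-number pairs 0 had a correlation of deviations over 0.1. With a replicate block, lactate gave 4597 genes higher and 4341 lower in sgControl cells and 13 members higher in sgHcar1 cells, and 2 member calls were lost (Tapbp and Psme2).

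Psmb8 and Psmb9, at 30 to 114 fragments in sgHcar1 libraries, and H2-T24, at 67 to 241, are limited by depth. H2-Q6 and Hcar1 are near 0.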
